A study of Mus musculus with 4 samples.

Results

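The 8 genes described here carry the symbol Ifi, for interferon-inducible, and a number: Ifi27, Ifi30, Ifi35, Ifi44, Ifi47, Ifi203, Ifi204 and Ifi207. They were named by symbol, with no measured value in the rule, from 48897 genes listed in a table of read counts from mouse retina. The choice was made with earlier results of these data known. Other genes listed under such a symbol, such as Ifi44l and Ifi202b, had few or no counts and are not among the 8. Of the 8 genes, 7 stand in the table under their own symbol, and Ifi207 stands under the older symbol AI607873, which RefSeq gives as its synonym at the same position. Interferons are secreted proteins that bind cell surface receptors and activate kinases of the Jak family, which signal to transcription factors. Such factors bind short promoter motifs, the interferon-stimulated response element (ISRE) and the gamma-activated sequence (GAS), and induce a large set of antiviral and antigen-handling genes. In the retina, microglia, the resident immune cells, are among the cells known to express such genes. The Ifi symbol groups genes by this inducibility and not by protein family, and the 8 genes encode unrelated proteins except for Ifi203, Ifi204 and Ifi207, which belong to one family and one gene cluster.

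The libraries were made from retinas of wild-type mice at postnatal day 9, of the strain C57BL/6 by the labels and C57BL/6J by the study's methods. In the anti-miR-124 group, left eyes were injected into the vitreous on postnatal day 3 with 1 μl holding 0.6 nmol of an antagomir, a chemically modified antisense oligonucleotide against the microRNA miR-124-3p. In the NC group, right eyes received a scrambled oligonucleotide at the same age, so both groups had 6 days after an injection and the treatment and the side of the eye cannot be told apart. Each group has 2 libraries of mixed retinas, and 1 library of each group shares a number. The libraries are written NC-A and anti-A for one number (pair A) and NC-B and anti-B for the other (pair B), because the labels do not tell which number is which replicate. Each group was mixed from the retinas of several mice of more than 1 litter. The study's methods give a range for the number of mixed retinas in the groups. Which animals or how many went into each library is not given in the sources used here. A number shared by a left-eye and a right-eye library may mark eyes of the same mice, but no source used here says what it stands for. These libraries do not measure mature miR-124-3p. Between 16317239 and 18726963 reads were counted on genes per library. Rod markers summed to between 11640 and 13430 TPM (a level corrected for gene length and library size) in the 4 libraries. NC-A stood apart, since 21 lens genes took 2.07% of its counts and at most 0.00815% of those of any other library. The groups were compared by the quasi-likelihood test of edgeR over the 17766 genes left by its low-count filter, and p-values were adjusted over all of them by the Benjamini-Hochberg method.

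Most of the Ifi genes had more reads in anti-A and anti-B, and the excess was larger in pair B for 8 of 8. The share of all genes tested with a larger ratio in pair B was not calculated. Of the 8 genes, 6 were higher in both pairs in the antagomir-treated library, against 22.8% of all genes tested. In the same 6 genes the lowest anti-miR-124 library lay above the highest NC library, against 16.5% of all genes tested. The other two, Ifi30 and Ifi204, overlapped between the groups. None of the 8 had an adjusted p-value under 0.05 by edgeR, and none of all genes tested did (0.0%), with a smallest adjusted p of 0.487 and 694 genes at an unadjusted p-value under 0.05. At an unadjusted p-value under 0.05, 5 of the 8 were higher with the antagomir, against 2.23% of all genes tested. DESeq2 gave 34 genes with an adjusted p under 0.05, and none of the 8 was among them. All 8 genes passed the filter on low counts, but 5 of them, Ifi35, Ifi44, Ifi47, Ifi203 and Ifi207, passed only through the libraries in which they were high, so the counts over the members are not given as support for a difference. When the filter was left out, 6 of the 8 had an adjusted p under 0.05 by edgeR and were higher, against 0.788% of 31982 genes. They were Ifi35, Ifi44, Ifi47, Ifi203, Ifi204 and Ifi207. Ifi204, whose groups overlapped, was thus among them, and Ifi27, whose groups did not overlap, was not. The median log2 fold change of the 8 genes was 2.06, and that of all genes tested was 0.000662. The median log2 ratio was 0.78 in pair A and 2.82 in pair B, where all genes tested had medians of -0.00941 and 0.00314. Retinas are mixtures of cells, so more cells of a type and more RNA per cell cannot be told apart in these libraries.

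**Figure D1:**
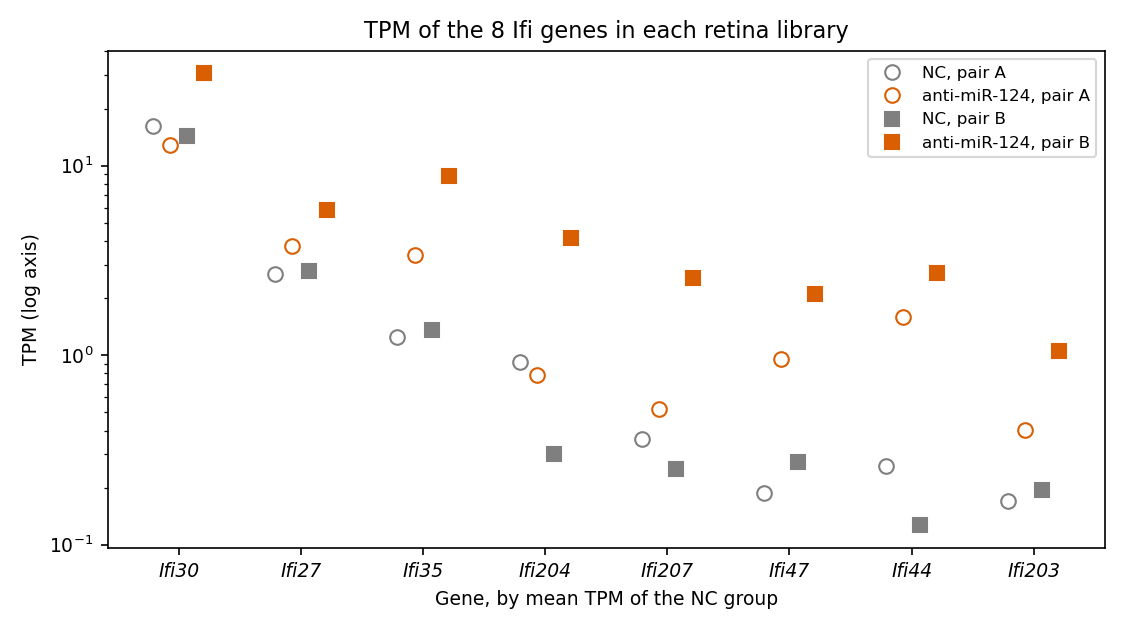
Level of each Ifi gene in TPM on a log axis, with 1 point per library, NC libraries in grey and anti-miR-124 libraries in orange, and pair A as open circles and pair B as filled squares. Anti-B is the highest of the 4 for each gene, and Ifi30 lies above the others in every library.

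By level, Ifi30 led in both groups, with 15.2 ± 1.33 TPM (SD, n = 2) in the NC group and 21.8 ± 12.6 TPM (SD, n = 2) in the anti-miR-124 group. Ifi27 followed in the NC group with 2.73 ± 0.054 TPM and Ifi35 with 1.30 ± 0.075 TPM. The NC libraries of these 3 genes did not overlap each other or those of the next gene. The remaining 5 were all under 1 TPM in both NC libraries. Their order was Ifi204 at 0.613 ± 0.441 TPM, Ifi207 at 0.306 ± 0.077 TPM, Ifi47 at 0.231 ± 0.062 TPM, Ifi44 at 0.193 ± 0.094 TPM and Ifi203 at 0.182 ± 0.017 TPM, and each neighbour in this order overlapped the next. In the anti-miR-124 group, Ifi35 stood second at 6.09 ± 3.83 TPM and Ifi27 next at 4.79 ± 1.47 TPM, with overlapping libraries. Ifi204 with 2.48 ± 2.40 TPM, Ifi44 with 2.15 ± 0.807 TPM, Ifi207 with 1.53 ± 1.43 TPM, Ifi47 with 1.52 ± 0.810 TPM and Ifi203 with 0.730 ± 0.463 TPM followed, each overlapping its neighbour. Summed over the 8 genes, the level was 22.0 and 19.5 TPM in NC-A and NC-B and 24.3 and 57.9 TPM in anti-A and anti-B. Without Ifi30 these sums were 5.84 and 5.27 TPM in NC-A and NC-B against 11.4 and 27.2 TPM.

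Ifi44, a cytoplasmic protein induced by type I interferon, had the largest fold change of the 8. It had 4 counts in NC-A and 2 in NC-B, against 24 and 45 in anti-A and anti-B. In TPM these were 0.259 and 0.127 against 1.58 and 2.72. Both anti-miR-124 libraries lay above both NC libraries. The ratio of anti-miR-124 to NC, scaled by library size, was 5.66 in pair A (exact 95% counting interval 1.95 to 22.5) and 21.6 in pair B (5.63 to 183). These intervals cover counting error only and not the spread between retinas. The log2 fold change was 3.38 (SE 0.57), with an unadjusted p of 0.000744 and an adjusted p of 0.695 by edgeR. By p-value Ifi44 ranked 19 and by fold change 13 among all genes tested. It lies on chromosome 3 (GRCm38, chr3:151730922-151749959, minus strand). Its neighbour Ifi44l had no count in any library.

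Ifi35, a leucine-zipper protein that forms a complex with Nmi, had 9 and 10 counts in NC-A and NC-B against 24 and 68 in anti-A and anti-B. The levels were 1.25 and 1.35 TPM against 3.38 and 8.80 TPM. The NC libraries were close together, and both anti-miR-124 libraries lay above them. The ratio was 2.52 in pair A (exact 95% counting interval 1.13 to 6.15) and 6.51 in pair B (3.34 to 14.2), and the log2 fold change was 2.17 (SE 0.55, unadjusted p = 0.0064 and adjusted p = 0.989 by edgeR). Nmi itself had 45 and 37 counts in NC-A and NC-B and 38 and 84 in anti-A and anti-B. Its groups overlapped, with a log2 fold change of 0.47 (SE 0.40). Ifi35 lies at chr11:101448412-101458701 on the plus strand and shares 815 bases with an antisense gene that had at most 3 counts in a library.

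Ifi47 is an immunity-related GTPase, a class of dynamin-like proteins that act on membranes around intracellular pathogens. It was counted 2 and 3 times in NC-A and NC-B and 10 and 24 times in anti-A and anti-B, or 0.187 and 0.274 TPM against 0.952 and 2.10 TPM. The groups did not overlap, though the NC values rest on single reads. In pair A the ratio was 4.72 (exact 95% counting interval 1.01 to 44.3) and in pair B 7.66 (2.33 to 39.8). The log2 fold change of Ifi47 was 2.62 (SE 0.66, unadjusted p = 0.00642 and adjusted p = 0.989 by edgeR). Irgm2, another immunity-related GTPase, had 17 and 27 counts in NC-A and NC-B against 47 and 123, a log2 fold change of 1.86 (SE 0.48, adjusted p = 0.989). The gene of Ifi47 at chr11:49076587-49096987 lies inside the span of Olfr56 on the same strand, which had 2 counts in anti-B and none elsewhere, and 2.54% of its 50-base stretches also occur in Olfr56 transcripts.

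Ifi27, a small membrane protein of mitochondria and the nuclear envelope, had 19 and 20 counts in NC-A and NC-B and 26 and 44 in anti-A and anti-B. Its levels were 2.69 and 2.77 TPM against 3.75 and 5.82 TPM, so the groups did not overlap. The ratio in pair A was 1.29, with an exact 95% counting interval of 0.687 to 2.47 that includes 1, and in pair B it was 2.11 (1.22 to 3.77). The log2 fold change was 0.76 (SE 0.36, unadjusted p = 0.0786 and adjusted p = 0.989 by edgeR). Ifi27 at chr12:103434182-103440245 lies wholly within Ifi27l2a on the opposite strand, whose counts were 2 and 0 in NC-A and NC-B and 2 and 6 in anti-A and anti-B. Whether the counting used strand is not given in the sources used here, so reads of both genes may be mixed.

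Ifi30, also known as GILT, is a lysosomal thiol reductase that unfolds proteins for presentation on class II molecules. It was the most abundant of the 8, and the pairs differed in direction. The NC libraries had 84 and 76 counts and the anti-miR-124 libraries 66 and 171, or 16.1 and 14.3 TPM against 12.9 and 30.7 TPM. The lowest and the highest library of Ifi30 were thus both from the anti-miR-124 group. The ratio was 0.741 in pair A (exact 95% counting interval 0.529 to 1.04) and 2.16 in pair B (1.64 to 2.86). The log2 fold change of 0.46 (SE 0.40, unadjusted p = 0.289 and adjusted p = 0.989 by edgeR) was -0.28 without anti-B. Partners in antigen handling differed among themselves. Ctss, cathepsin S, had 261 and 253 counts in NC-A and NC-B and 295 and 1115 in anti-A and anti-B (log2 fold change 1.35, SE 0.51, adjusted p = 0.989). Cd74, the invariant chain, had 17 and 5 counts in NC-A and NC-B and 10 and 51 in anti-A and anti-B. Ciita, the transactivator of class II genes, had 17 and 35 counts in NC-A and NC-B and 16 and 29 in anti-A and anti-B. H2-Ab1 had 36 and 21 counts in NC-A and NC-B and 42 and 62 in anti-A and anti-B. For Ctsb, Ctsd, Ctsl and Lgmn, the log2 ratios in pair A were -0.02, -0.11, -0.15 and -0.07. Their log2 ratios in pair B were 0.95, 1.03, 0.95 and 0.31. Ifi30 lies at chr8:70762773-70766663 on the minus strand, where 85 bases overlap a gene of the other strand that had between 18 and 28 counts per library, and none of its 50-base stretches occur in transcripts of another gene.

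**Figure D2:**
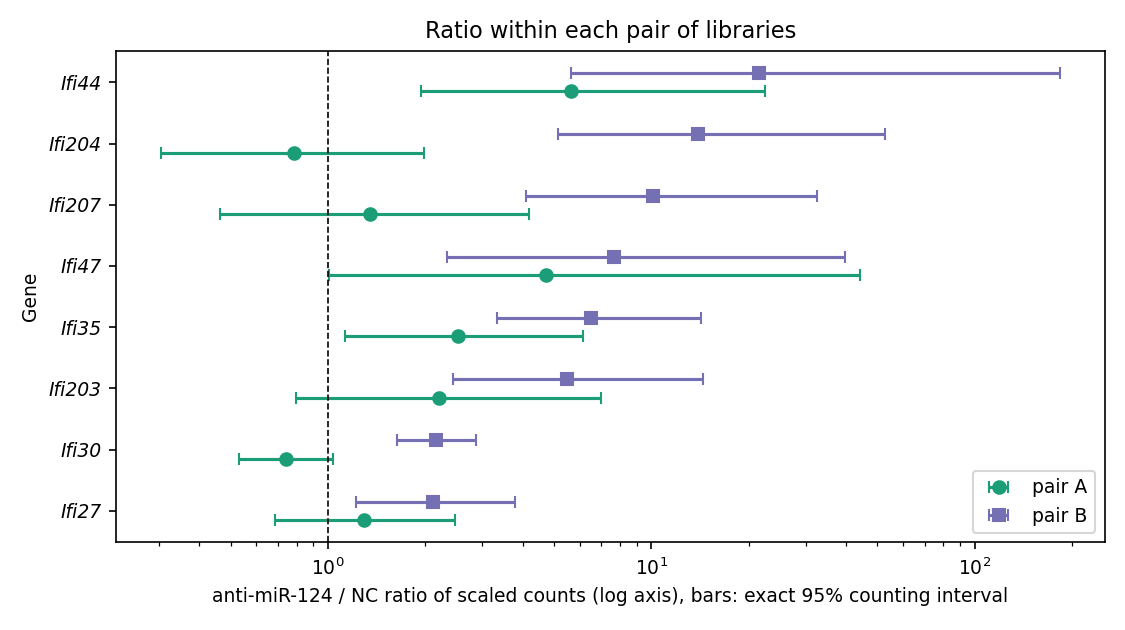
Ratio of the anti-miR-124 to the NC library of each pair for the 8 genes, from counts scaled by library size, on a log axis, with exact 95% counting intervals as bars and a dashed line at 1. The interval lies above 1 for 3 of 8 genes in pair A and for 8 of 8 in pair B, and the share among all genes tested was not calculated.

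Ifi203, Ifi204 and Ifi207 belong to the PYHIN family, whose proteins carry an N-terminal pyrin domain and usually C-terminal HIN domains that bind nucleic acid. Ifi204 is a sensor of DNA that signals through Sting, and the family is encoded in the Ifi200 cluster of mouse chromosome 1. Ifi203 lies at chr1:173920400-173942848, Ifi204 at chr1:173747293-173767069 and Ifi207 at chr1:173723427-173741831 (GRCm38), all on the minus strand. Promoter sequences from RefSeq (GRCm38.p6), each of 300 bases from 250 before to 50 after a start site, were found for 6 of the 8 genes. None was found for Ifi27 and Ifi204, so these genes were not searched for motifs. The ISRE core was searched as GAAANNGAAA on both strands (TTTCNNTTTC on the other strand). It occurred in 2 of the 6 genes, Ifi203 (in 1 of its 2 promoters) and Ifi207, and in 3.44% of all 32851 promoters of this length. Stretches of 80 bases around the start sites of these 2 promoters are shown because the same 10 bases stand just upstream of the start in both. The capitals mark the match, which begins 35 bases before the start of this Ifi203 promoter and 41 before that of Ifi207. The other start of Ifi203 lies farther upstream, so the match is not upstream of that start. The Ifi203 stretch is chr1:173942473-173942552 and the Ifi207 stretch chr1:173741796-173741875, both on the minus strand and written 5′ to 3′.
Ifi203: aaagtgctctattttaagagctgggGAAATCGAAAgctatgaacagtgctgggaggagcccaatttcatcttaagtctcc
Ifi207: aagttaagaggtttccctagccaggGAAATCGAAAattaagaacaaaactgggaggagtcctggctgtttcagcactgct
Aligned at the match, the stretches were identical at 43 of 80 positions (53.8%), of which 10 are the match itself. Over 294 aligned bases of the promoters the share was 33.7%. The share between other promoters was not calculated. With 1 mismatch allowed in the 8 fixed letters, a search chosen after the exact one, 5 of the 6 genes held a match, as did 35.4% of all promoters. Ifi44, the gene with the largest fold change, had no exact match, and its promoter stretch chr3:151749901-151749980 (minus strand) had several matches with 1 mismatch, some of them overlapping, marked by capitals.
Ifi44: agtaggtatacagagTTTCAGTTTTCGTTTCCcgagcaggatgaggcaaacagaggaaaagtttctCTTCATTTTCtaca
The GAS motif TTCNNNGAA, which reads the same on both strands, occurred in Ifi35 alone of the 6 genes and in 8.3% of all promoters. A match is a description of the letters and does not show that a factor bound there.

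Ifi203 had 6 and 7 counts in NC-A and NC-B and 14 and 40 in anti-A and anti-B, or 0.170 and 0.194 TPM against 0.403 and 1.06 TPM. The groups did not overlap. The ratio was 2.20 in pair A (exact 95% counting interval 0.795 to 6.99) and 5.47 in pair B (2.43 to 14.5), with a log2 fold change of 1.94 (SE 0.59, unadjusted p = 0.0147 and adjusted p = 0.989 by edgeR). Ifi207 had 7 and 5 counts in NC-A and NC-B and 10 and 53 in anti-A and anti-B, or 0.360 and 0.251 TPM against 0.523 and 2.54 TPM. Its groups did not overlap either, but in pair A the difference was 3 counts. The ratio of Ifi207 was 1.35 in pair A (exact 95% counting interval 0.463 to 4.17) and 10.2 in pair B (4.09 to 32.6), and its log2 fold change was 2.26 (SE 0.81, unadjusted p = 0.0293 and adjusted p = 0.989 by edgeR). Without anti-B, the log2 fold change was 1.10 for Ifi203 and 0.72 for Ifi207.

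Ifi204 had 12 and 4 counts in NC-A and NC-B and 10 and 58 in anti-A and anti-B, or 0.925 and 0.301 TPM against 0.783 and 4.17 TPM. Anti-A lay below NC-A, so the groups overlapped. The ratio was 0.786 in pair A (exact 95% counting interval 0.304 to 1.99) and 13.9 in pair B (5.14 to 52.7). The NC libraries also differed, with a ratio of pair B to pair A of 0.297 (0.0699 to 0.981). For the other 7 genes this interval between the NC libraries included 1. The log2 fold change of Ifi204 was 1.95 (SE 0.88, unadjusted p = 0.0651 and adjusted p = 0.989 by edgeR), and it was 0.31 without anti-B, 1.30 without NC-B and 3.02 without NC-A. PYHIN genes share sequence. Of the 50-base stretches of their transcripts, 703 of 3512 in Ifi204, 12.2% in Ifi203 and 7.29% in Ifi207 occur in transcripts of other genes. The largest overlaps were with Ifi211 for Ifi204 (14.8%), with the pseudogene Ifi203-ps for Ifi203 (8.85%) and with Ifi204 for Ifi207 (2.68%). How the authors' counting divided such reads is not given in the sources used here. The values of these 3 genes are therefore uncertain, by an amount that the shares of stretches do not give.

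The Ifi200 cluster, from Aim2 to Ifi205, spans 682.51 kb (chr1:173349246-174031755). Within it, 14 RefSeq genes were taken by symbol (Aim2, Mndal and the Ifi200 names), among them the pseudogene Ifi203-ps. Of these 14, 12 were matched to genes of the count table. Besides the 3 genes above, 9 were matched, and 8 of these had counts. The highest of the 4 libraries was anti-B for 6 of the 9, and the share of all genes tested with anti-B highest was not calculated. Aim2, which senses cytosolic DNA and assembles an inflammasome, had the most counts, 51 and 41 in NC-A and NC-B and 62 and 74 in anti-A and anti-B, and a log2 fold change of 0.48 (SE 0.28, adjusted p = 0.989 by edgeR). Its groups did not overlap, but they were closer than those of Ifi203 and Ifi207. Mndal had 5 and 6 counts in NC-A and NC-B against 15 and 20, a log2 fold change of 1.57 (SE 0.45, unadjusted p = 0.0118 and adjusted p = 0.989 by edgeR). Its counts in anti-A and anti-B were closer to each other than those of Ifi203, Ifi204 and Ifi207. The others were too low for the filter, and 5 of them are given here by their RefSeq symbols for Ifi206 (listed as LOC102639543), Ifi208 (Pydc3), Ifi209 (Pyhin1), Ifi211 (Mnda) and Ifi213 (Pydc4). Ifi206 had 0 and 1 counts in NC-A and NC-B and 3 and 17 in anti-A and anti-B. Ifi211 had 2 and 0 counts against 2 and 13. Ifi209 had 7 and 2 counts against 2 and 13, and overlapped between the groups. Ifi213 had no count in either NC library and 4 and 6 in anti-A and anti-B. Ifi208 and Ifi205 had fewer than 10 counts in all, and Ifi202b had none. Summed over the 12 genes, the cluster had 94 and 69 counts in NC-A and NC-B against 124 and 297.

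**Figure D3:**
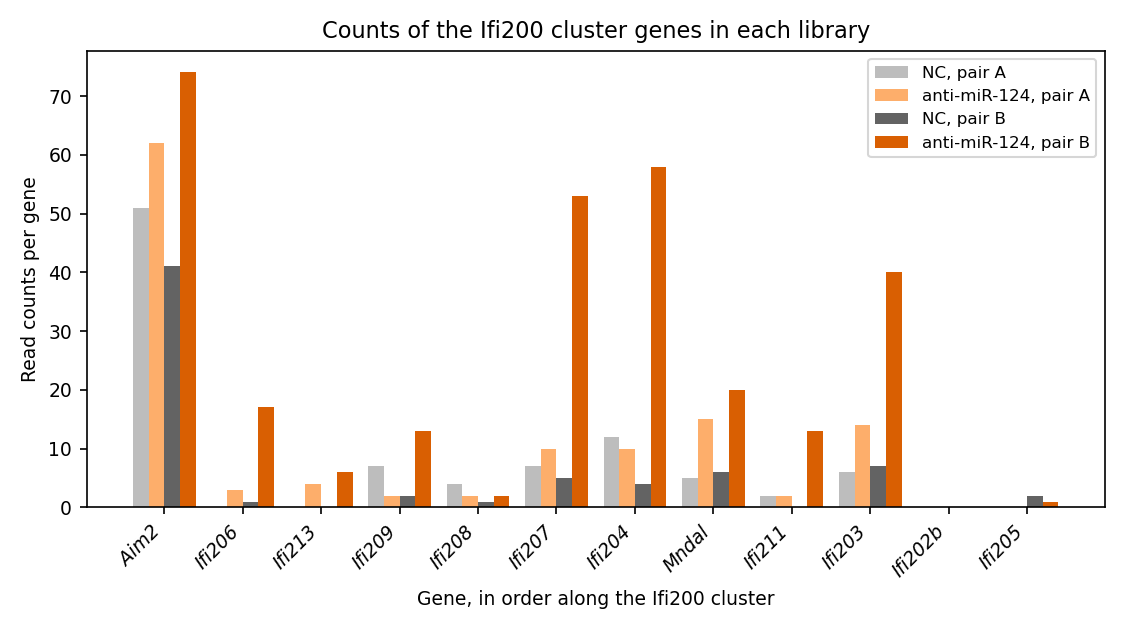
Read counts of the 12 matched genes of the Ifi200 cluster, in their order along the chromosome, with 1 bar per library (NC in greys, anti-miR-124 in oranges, darker for pair B). The tallest bars of Ifi203, Ifi204 and Ifi207 are those of anti-B, at 40, 58 and 53 counts, while Aim2 has between 41 and 74 counts in all 4 libraries.

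The anti-miR-124 libraries also differed from each other. The ratio of anti-B to anti-A had a counting interval above 1 for 7 of the 8, the exception being Ifi27 with a ratio of 1.53 (exact 95% counting interval 0.923 to 2.59). How many of all genes tested had such an interval above 1 was not calculated. Leaving out anti-B lowered the median log2 fold change of the 8 from 2.06 to 0.91. The log2 fold changes were then 2.95 for Ifi44, 1.95 for Ifi47, 1.33 for Ifi35 and 0.42 for Ifi27. Leaving out anti-A raised the median to 2.68, and the log2 fold changes then ran from 0.95 for Ifi30 to 3.71 for Ifi44. That fit rests on anti-B as the lone anti-miR-124 library, which was assumed to vary like the NC libraries. Without NC-A, which held the lens transcripts, the median was 2.31.

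**Figure D4:**
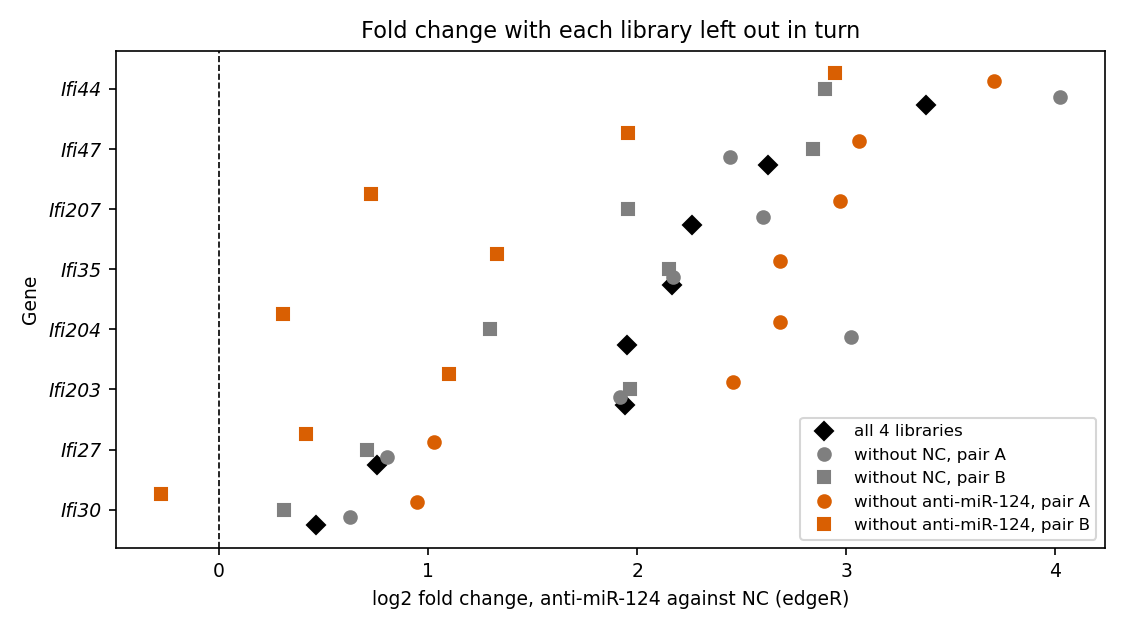
Log2 fold change of each gene from edgeR with all 4 libraries (black diamonds) and with 1 library left out (grey for NC, orange for anti-miR-124, circles for pair A and squares for pair B). The orange squares, from the fits without anti-B, lie below the diamonds for all 8 genes, between -0.28 for Ifi30 and 2.95 for Ifi44.

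Other interferon-stimulated genes were compared as a list of 47 genes that holds none of the 8. Of these, 41 were tested and 36 were higher with the antagomir at an unadjusted p-value under 0.05, against 2.23% of all genes tested, and none was lower. Some of them had almost no NC counts and passed the filter through the anti-miR-124 libraries, so this count is a description. Their median log2 ratio was 1.75 in pair A and 2.63 in pair B, so the list lay above the 8 Ifi genes in pair A and near them in pair B. Ifit1, an RNA-binding antiviral protein, had 3 counts in each NC library and 78 and 174 in anti-A and anti-B, a log2 fold change of 5.24 (SE 0.54, adjusted p = 0.487). Rsad2, the antiviral enzyme viperin, had 26 and 22 counts against 127 and 191. Oasl2, of the oligoadenylate synthetase family, had 47 and 38 counts against 327 and 789, and Gbp3, a guanylate-binding protein, had 10 and 14 against 82 and 184. Each of these 4 genes was higher in both anti-miR-124 libraries than in either NC library.

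The ligands and receptors upstream were measured with a list of 17 interferon, receptor and kinase genes. Of these, 6 had no count in any library and 8 were tested, and these had a median log2 fold change of 0.08. Il10rb, a receptor chain shared by interferon lambda, was the only one with an unadjusted p-value under 0.05, with 32 and 36 counts in NC-A and NC-B against 42 and 110 (log2 fold change 1.06, SE 0.44, adjusted p = 0.989 by edgeR). Tyk2, Ifngr2 and Ifngr1 followed with log2 fold changes of 0.16, 0.13 and 0.10. A list of 22 genes that act with the 8, such as the antigen proteases, the DNA sensing pathway and Nmi, had 19 tested members. Of these, 2 were higher at an unadjusted p-value under 0.05 (against 2.23% of all genes tested), Irgm2 and Ctss, and 1 was lower, the kinase Tbk1, with a log2 fold change of -0.22 (SE 0.08). Pycard, the inflammasome adaptor, came next with 0.84. The median log2 ratio of this list was -0.12 in pair A and 0.95 in pair B.

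Like the 8 genes, the microglia markers had their highest summed level in anti-B. So did the markers of rods, of endothelium and of lymphocytes and neutrophils, and the interferon-stimulated, receptor and partner lists. The markers of retinal neurons and Müller glia and of the pigment epithelium were highest in anti-A, and the lens genes in NC-A. Of 20 microglia markers, all tested, 5 were higher with the antagomir at an unadjusted p-value under 0.05, against 2.23% of all genes tested, and none was lower. Their levels summed to 309.9 and 251.8 TPM in NC-A and NC-B and to 302.9 and 803.4 TPM in anti-A and anti-B. Their median log2 ratio was -0.09 in pair A and 1.73 in pair B. Over the 20 markers, the log2 ratio in pair B ran from 0.16 for the receptor P2ry12 to 2.49 for the lysosomal protein Cd68, and in pair A from -1.17 for Tmem119 to 0.60 for Siglech. No marker was at 0 in a library. Of 15 lymphocyte and neutrophil markers, 6 had no count in any library and 2 passed the filter, and the list summed to between 8.01 and 10.6 TPM. Endothelial markers summed to between 590.7 and 675.5 TPM, and their median log2 fold change was -0.05. The median was 0.01 for markers of retinal neurons and Müller glia and 0.42 for those of the pigment epithelium, whose median log2 ratios were 0.82 and 0.12 in pairs A and B. The part of the microglia level in the values of the 8 genes was not tested.

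**Figure D5:**
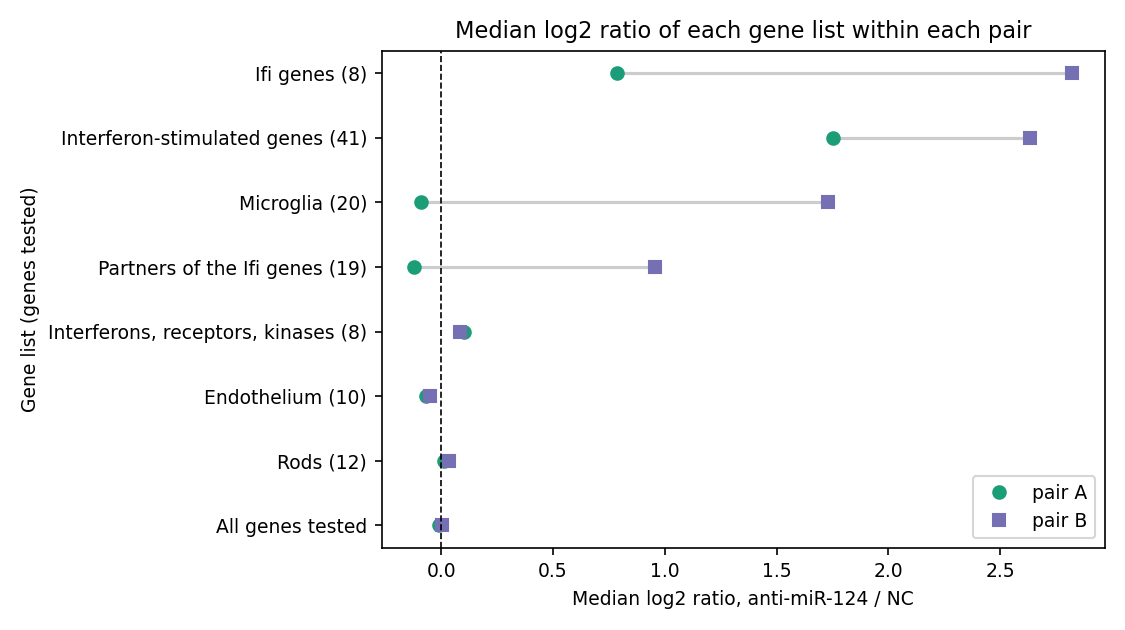
Median log2 ratio of anti-miR-124 to NC within pair A (green circles) and pair B (purple squares) for each gene list, with the number of genes tested in brackets and a dashed line at 0. The 8 Ifi genes go from 0.78 in pair A to 2.82 in pair B, the other interferon-stimulated genes from 1.75 to 2.63 and the microglia markers from -0.09 to 1.73.

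Among all other genes tested, those whose pattern over the 4 libraries was most like the mean of the 8 were found by Euclidean distance. It was taken over log2 values scaled by library size, each gene set relative to its NC mean. A small count was added before the log, which shrinks the differences of low-count genes, such as Ifi44, and so the mean pattern of the 8. Zc3hav1 was the closest, at a distance of 0.164, with 67 and 54 counts in NC-A and NC-B against 108 and 281. Parp9 at 0.283, Dtx3l at 0.341, H2-T23 at 0.361 and Gm6548 at 0.409 followed. Their log2 fold changes lay between 1.41 and 1.72, each with an adjusted p above 0.95 by edgeR. Of the 8 genes themselves, Ifi203 lay nearest to the mean at 0.269, and Ifi44 at 1.83 and Ifi30 at 1.68 lay farthest. With 4 libraries, 1 high value can set such a distance, so the order is a description.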

How the data were processed

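The authors deposited a table of read counts per gene, without normalization, with gene positions and lengths, for 4 libraries of mouse retina. Its 4 RPKM columns followed from the counts and lengths and were not used. The submitters' processing notes name HISAT2 and mm9, whereas 99.8% of 36834 matched symbols overlapped RefSeq of GRCm38.p6. The counter and its strand setting are not given in the sources used here.

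TPM was calculated here from counts and gene lengths. Groups were compared with edgeR 4.0.16 in R 4.3.3 (quasi-likelihood test, TMM, its default filter, no covariate, two-sided). DESeq2 1.42.0 and limma 3.58.1 were alternatives. Ratios within pairs have exact 95% intervals from counts scaled by TMM, for counting error only. Motifs and shared stretches of 50 bases were searched in RefSeq promoters and GENCODE M21 transcripts with Python 3.11.15.

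The members and lists were chosen with earlier results of these data known. All 8 members are named, with the other Ifi and PYHIN genes, the 4 genes of smallest p of each of 3 lists, and the 5 nearest patterns. Nmi, Ctsb, Ctsd, Ctsl, Lgmn, H2-Ab1, Cd74, Ciita and the microglia markers of lowest and highest ratio were named after their values were seen. The samples of each group came from several litters. The study's methods speak of biological replicates, with differing numbers in different places. They do not say whether the libraries of a group hold separate animals, so p-values measure only the spread between these libraries, which may be technical. Counts of any 2 libraries differed beyond sampling noise (chi-square per degree of freedom of 3.69 or more), so none is a copy.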

Additional observations from a re-analysis of the deposited data

How the results depend on the processing

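No gene had an adjusted p-value under 0.05 with edgeR, but 34 did with DESeq2 and 379 without the filter on low counts, and leaving out each library in turn gave between 0 and 256. The cause was not tested, except that the fit without a filter used 31982 genes. A shared number may mark both eyes of the same mice, but the sources used here do not say so, and NC-A and anti-A deviated from their groups with a correlation of -0.162 across genes. With the number as a replicate block, 0 genes were called by edgeR and 376 had an unadjusted p-value under 0.05, the median of the 8 genes was 1.95, and none of the 8 was called. With the numbers crossed, chosen after seeing the data, 160 genes were called. Of 111 alternatives for the single Ifi genes, 9 passed the threshold (6 without the filter, 3 without anti-A), and Ifi30 reversed once, with a range of -0.28 to 0.95 over the libraries left out. The fit without anti-A has a lone anti-miR-124 library, so its calls are not given as support for a difference. The other 101 alternatives had the same direction and did not pass, which says little where the smallest adjusted p of all genes was 0.487. Among them, without anti-B, Ifi204 was at 0.31 and Ifi207 at 0.72. A filter on a mean of at least 10 counts left no value for Ifi47. The count of 6 genes higher in both pairs was the same under 5 scalings. All 16 alternatives of the median log2 fold change stayed within the spread of the pair medians (SD 1.44), which is wide. Depth limits the low genes: 4 of the 8 had under 10 counts in both NC libraries.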
